A study of Homo sapiens with 6 samples.

Results

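A group of 10 genes that NF-kB is known to switch on was followed here after depletion of the long noncoding RNA *SNHG15*. They are the chemokines *CXCL1*, *CXCL2*, *CXCL3*, *CXCL8* and *CCL20*, the pathway inhibitors *NFKBIA* and *TNFAIP3*, the survival gene *BIRC3*, the subunit *RELB* and the adhesion molecule *ICAM1*. They were picked by name, and they are 10 of the 63677 genes of the deposited table, all found by their Ensembl identifiers. The RNA came from libraries labelled LoVo, an established human colorectal cancer cell line. Cells received either the combination of 2 siRNAs against *SNHG15* or a control siRNA, the scramble condition, and both conditions had Lipofectamine, 25 nM siRNA and 48 h. Each condition had 3 libraries, which the study's methods describe as biological replicates. Because both siRNAs were given together and all libraries were transfected, neither siRNA alone nor the effect of transfection itself can be read from these data.

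NF-kB is a family of dimeric transcription factors that rest in the cytoplasm bound to inhibitors of the IkB family. Signals from tumor necrosis factor, interleukin 1 or microbial products activate the IKK kinases, the inhibitors are degraded, and the dimers enter the nucleus and bind short guanine-rich sites near their targets. A second route, through receptors such as the lymphotoxin beta receptor, releases dimers that contain RELB. Several targets feed back on the pathway: the IkB alpha protein made from *NFKBIA* takes NF-kB out of the nucleus, and A20, made from *TNFAIP3*, edits ubiquitin chains upstream of IKK. In colorectal tumors the chemokines among the targets attract neutrophils and other leukocytes.

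The promoters show what the genes have in common. Of the 10 genes, 9 had an entry in the RefSeq promoter table (build GRCh38.p14, 250 bases before to 50 after the start), and *RELB* was not among them. The letters GGNNTTTCC, the core of an NF-kB site, were searched on both strands. All 9 promoters held at least 1 match, beside 6.26% of all 35116 promoters of the table. The motif was chosen after these promoters had been looked at, the genes are on the list because they are known targets, and a match is a description and no proof of binding. Each window below carries 1 match in capitals with 25 bases on either side. Windows are shown for the chemokines, whose sites can be compared, and for *NFKBIA* and *BIRC3*, the 2 genes with the lowest unadjusted p.
CXCL1: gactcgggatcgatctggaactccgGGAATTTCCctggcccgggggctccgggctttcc
CXCL2: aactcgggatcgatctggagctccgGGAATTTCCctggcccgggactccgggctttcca
CXCL3: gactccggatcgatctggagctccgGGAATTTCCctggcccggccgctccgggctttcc
CXCL8: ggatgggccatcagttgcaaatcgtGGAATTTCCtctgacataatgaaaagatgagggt
CCL20: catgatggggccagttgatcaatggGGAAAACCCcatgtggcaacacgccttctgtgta
NFKBIA: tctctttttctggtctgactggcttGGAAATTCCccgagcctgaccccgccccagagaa
BIRC3: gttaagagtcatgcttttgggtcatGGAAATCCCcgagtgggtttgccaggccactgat

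In GRCh38.p14 the windows are chr4:73869290-73869348 on the plus strand for *CXCL1*, chr4:74099239-74099297 on the minus strand for *CXCL2* and chr4:74038734-74038792 on the minus strand for *CXCL3*. Those of *CXCL8* and *CCL20* are chr4:73740453-73740511 and chr2:227813738-227813796, both plus. Those of *NFKBIA* and *BIRC3* are chr14:35404797-35404855 on the minus strand and chr11:102317260-102317318 on the plus strand. The match begins 78 bases before the start in *CXCL1* and *CXCL3*, 77 in *CXCL2*, 91 in *CXCL8*, 79 in *CCL20*, 81 in *NFKBIA* and 199 in *BIRC3*. *CXCL1*, *CXCL2*, *CXCL3* and *CXCL8* carry the identical match GGAATTTCC in the direction of transcription, and *CCL20*, *NFKBIA* and *BIRC3* carry theirs on the other strand. *CXCL1*, *CXCL2* and *CXCL3* each hold a further match, GGGCTTTCC, that begins 53 bases before the start. *NFKBIA* also holds a further match, GGACTTTCC, in the direction of transcription, that begins 242 bases before the start.

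The libraries held 3446922 to 10256710 counts, scramble replicate 3 being the shallowest. *SNHG15* itself, the targeted gene, lay between 261 and 290 CPM (counts scaled to a common library size, with TMM factors) in the scramble and between 77.2 and 87.2 CPM in the siRNA libraries (log2 fold change -1.74, SE 0.12, edgeR adjusted p = 2.6e-05). Along the first principal component, 46.0% of the variance, the siRNA libraries lay at 39.1, 14.3 and 11.5, so siRNA replicate 1 stood apart. The label of the cells was checked against its markers. Of 12 colon epithelium markers, 4 were high enough to test, with *KRT8* at 41.6 to 68.3 CPM and *CDX2* at 25.4 to 29.0 CPM, and 7 were at or under 3 counts in every library, among them *EPCAM* at no more than 1 count. *CDX1*, *VIL1*, *KRT19*, *KRT20* and *CEACAM6* had 0 counts in every library. With these markers absent, the libraries are called here by their label only. *GAPDH* and *EEF1A1*, genes with many pseudogene copies in the genome, had 70 to 270 and 81 to 355 counts (looked at after their values were known). How reads shared with such copies were counted is not given, and whether this lowered the counts of these genes or of the markers was not tested.

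None of the 10 genes passed the test for a difference between conditions. *CXCL8* and *CCL20* were not detected well enough to be tested, and of the 8 others 0 were called, where the edgeR quasi-likelihood test called 671 of 12507 genes, 5.36%, at an adjusted p under 0.05 (3.13% higher and 2.23% lower with the siRNAs). DESeq2 also called 0 of the 8, and 6.05% of all genes. At an unadjusted edgeR p under 0.05, *NFKBIA* and *BIRC3* had lower levels with the siRNAs, 2 of 8 genes where 10.5% of all tested genes were lower and 22.5% changed either way by that measure. By DESeq2 the unadjusted p was 0.0264 for *NFKBIA* and 0.0910 for *BIRC3*. The fitted fold change was below 0 in 6 of 8, *CXCL1* at -0.07 among them, and in 49.9% of all tested genes, and the median log2 fold change of the 8 was -0.27 beside 0.00 over all genes. In bulk RNA, fewer cells of a kind and less RNA per cell cannot be told apart.

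**Figure D1:**
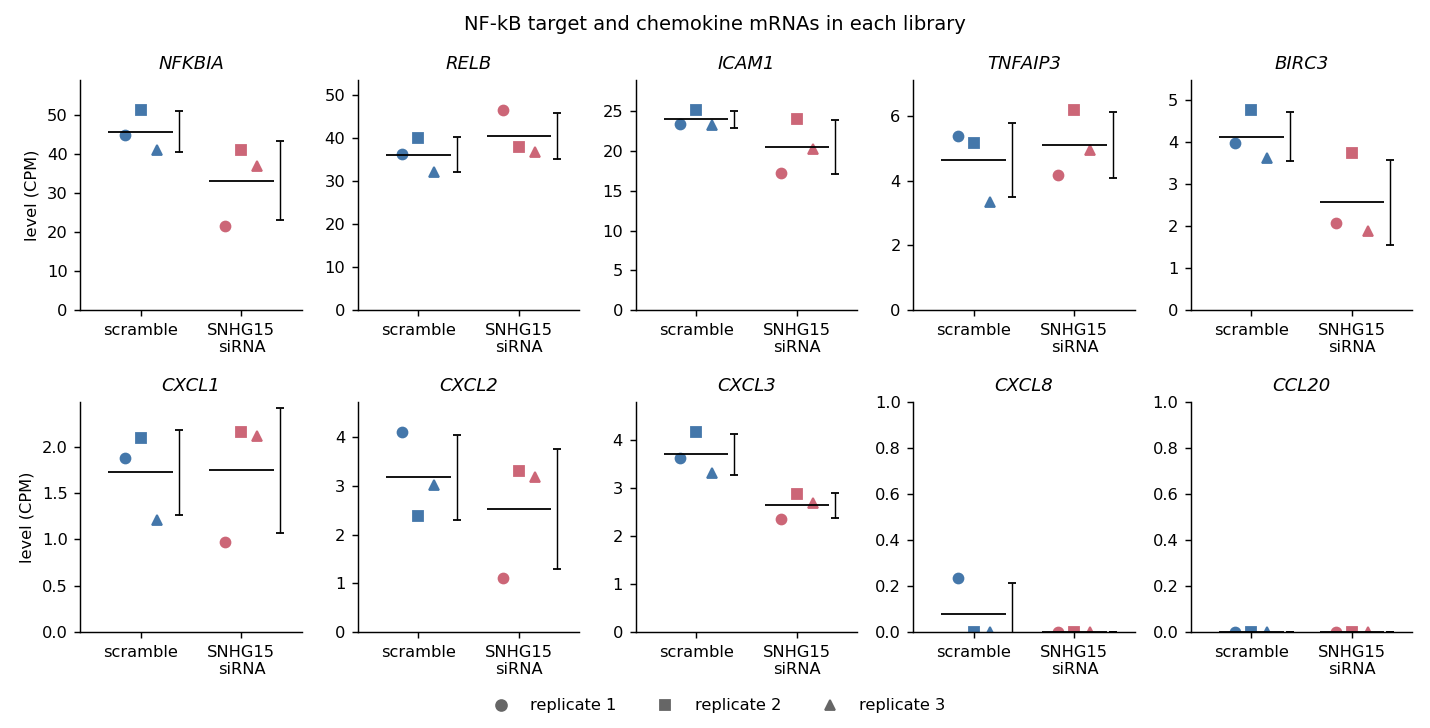
Level of each of the 10 genes in each library in CPM, with 1 panel per gene, the scramble and *SNHG15* siRNA libraries side by side, points for libraries, horizontal lines for means and error bars for the SD. *CXCL3* is the single tested gene whose 3 siRNA libraries (2.36 to 2.88 CPM) all lie below its 3 scramble libraries (3.33 to 4.18 CPM).

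*CXCL1*, *CXCL2* and *CXCL3* encode closely related chemokines that draw neutrophils through the receptor CXCR2. They lie near each other on chromosome 4 (GRCh37: *CXCL1*, ENSG00000163739, chr4:74735110-74737025; *CXCL3*, ENSG00000163734, chr4:74902306-74904524; *CXCL2*, ENSG00000081041, chr4:74962757-74964913). All 3 were transcribed at low levels, between 4 and 42 counts in a library, so that counting error alone is wide.

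*CXCL1* stood at 1.87, 2.09 and 1.21 CPM in scramble replicates 1 to 3 and at 0.970, 2.16 and 2.11 CPM in siRNA replicates 1 to 3. The conditions overlapped, siRNA replicate 1 being the lowest of the 6 libraries and siRNA replicate 2 the highest. The means were 1.72 ± 0.458 and 1.75 ± 0.673 CPM (SD, n = 3 each), and the fitted log2 fold change was -0.07 (SE 0.38, 95% interval -0.88 to 0.75, edgeR adjusted p = 0.940). The mean was slightly higher and the fitted value slightly below 0, so the direction of this gene is not settled. The interval holds changes of the size measured for *LTBR* (-0.49, described further on) in either direction.

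*CXCL2* was measured at 4.10, 2.39 and 3.02 CPM in the scramble libraries and at 1.11, 3.31 and 3.17 CPM in the siRNA libraries. Again siRNA replicate 1 was the lowest, and the other 2 siRNA libraries fell within the scramble range. The means were 3.17 ± 0.867 and 2.53 ± 1.23 CPM (SD, n = 3), with a log2 fold change of -0.31 (SE 0.38, 95% interval -1.14 to 0.51, edgeR adjusted p = 0.670). Without siRNA replicate 1 the log2 fold change was 0.03.

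*CXCL3* was the member whose conditions were apart. Its scramble libraries stood at 3.63, 4.18 and 3.33 CPM and its siRNA libraries at 2.36, 2.88 and 2.70 CPM, and all of the former lay above all of the latter. Such a separation was seen in 1 of the 8 tested members and in 14.1% of all tested genes. The means were 3.71 ± 0.431 and 2.65 ± 0.265 CPM (SD, n = 3), a log2 fold change of -0.52 (SE 0.26, 95% interval -1.08 to 0.05), which did not pass the test (edgeR adjusted p = 0.262). Leaving out any 1 library kept the value between -0.57 and -0.41.

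Reads of genes as alike as these 3 can be hard to assign. Of the 75-base words of the MANE transcript of each, 0.273% in *CXCL1*, 2.50% in *CXCL2* and 2.30% in *CXCL3* also occur in another of the 3. Summed to 1 row before the fit, their counts gave a log2 fold change of -0.33 (SE 0.24, edgeR adjusted p = 0.448).

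*CXCL8*, which encodes interleukin 8, had 2 counts in scramble replicate 1 and 0 counts in the 5 other libraries. *CCL20*, whose product attracts lymphocytes and dendritic cells through CCR6, had 0 counts in all 6. Neither passed the floor of 3 counts in any library, which corresponds to 0.298 to 0.907 CPM depending on the library, so no fold change is given and lower levels than that were not detectable at this depth. Both promoters hold a match, as printed above. *CXCL8* (ENSG00000169429) lies at chr4:74606236-74609433 and *CCL20* (ENSG00000115009) at chr2:228670455-228682280 in GRCh37. The 9 chemokine genes listed from chromosome 4 that are not members were all at or under the floor, 8 of them at 0 counts and *CXCL5* at no more than 1 count. The 7 chemokine receptors listed, *CXCR2* and *CCR6* among them, had 0 counts in every library.

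*NFKBIA* encodes IkB alpha, the inhibitor that NF-kB itself induces (ENSG00000100906, GRCh37 chr14:35870285-35873955, minus strand). It had 44.9, 51.2 and 40.8 CPM in the scramble libraries and 21.6, 41.0 and 36.8 CPM in the siRNA libraries. All but 1 of the siRNA libraries lay below the scramble range, and siRNA replicate 2 was just above scramble replicate 3, so the conditions overlapped. The means were 45.6 ± 5.24 and 33.1 ± 10.2 CPM (SD, n = 3). The log2 fold change of -0.47 (SE 0.20, 95% interval -0.91 to -0.03) did not pass once adjusted over all genes (edgeR adjusted p = 0.193). Much of the difference rested on siRNA replicate 1, without which the log2 fold change was -0.25 (edgeR adjusted p = 0.299). With no filter on low counts the adjusted p was 0.0507.

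*TNFAIP3* encodes A20, the ubiquitin-editing brake on the pathway (ENSG00000118503, chr6:138188351-138204451). Its libraries stood at 5.39, 5.17 and 3.33 CPM in the scramble and 4.16, 6.19 and 4.93 CPM in the siRNA condition. The lowest library was the shallow scramble replicate 3 and the highest siRNA replicate 2, with the rest intermixed. The means were 4.63 ± 1.13 and 5.09 ± 1.02 CPM (SD, n = 3), and the log2 fold change was 0.07 (SE 0.25, 95% interval -0.48 to 0.62, edgeR adjusted p = 0.904). The 2 inhibitors were thus measured with opposite signs, neither past the test, and the difference between them was not tested. An antisense lncRNA, *WAKMAR2*, overlaps *TNFAIP3* and had no more than 6 counts in any library.

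*BIRC3* encodes cIAP2, a ubiquitin ligase of the tumor necrosis factor receptor complex that protects cells from apoptosis (ENSG00000023445, chr11:102188215-102210134). It was measured at 3.98, 4.77 and 3.63 CPM in the scramble libraries and at 2.08, 3.74 and 1.88 CPM in the siRNA libraries. Replicates 1 and 3 of the siRNA condition lay well below every scramble library, and replicate 2 was above scramble replicate 3. From 4.13 ± 0.586 to 2.57 ± 1.02 CPM (SD, n = 3), it had the lowest fold change of the 8 tested genes, a log2 fold change of -0.73 (SE 0.31, 95% interval -1.40 to -0.07, edgeR adjusted p = 0.180). Over the 6 fits that left out 1 library, the value ran from -1.09 to -0.54, and the lowest adjusted p among them was 0.0995. A lncRNA on the other strand overlaps this gene and has no row in the table.

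*RELB* encodes the subunit through which the second route acts (ENSG00000104856, GRCh37 chr19:45504719-45541450). Its libraries stood at 36.3, 40.1 and 32.1 CPM in the scramble and 46.6, 37.8 and 36.9 CPM in the siRNA condition. Here siRNA replicate 1 was the highest library rather than the lowest, and the rest overlapped. The means were 36.2 ± 4.02 and 40.4 ± 5.35 CPM (SD, n = 3), a log2 fold change of 0.15 with the narrowest standard error of the 8 (SE 0.15, 95% interval -0.18 to 0.47, edgeR adjusted p = 0.601). Without siRNA replicate 1 the log2 fold change was 0.03.

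*ICAM1* encodes an adhesion molecule that leukocyte integrins bind (ENSG00000090339, GRCh37 chr19:10381769-10397291). It was measured at 23.4, 25.2 and 23.3 CPM in the scramble libraries and at 17.2, 24.0 and 20.2 CPM in the siRNA libraries. The scramble libraries were close together and siRNA replicate 2 fell among them, so the conditions overlapped. The means were 24.0 ± 1.04 and 20.5 ± 3.42 CPM (SD, n = 3), a log2 fold change of -0.23 (SE 0.16, 95% interval -0.58 to 0.11, edgeR adjusted p = 0.415). 2 antisense lncRNAs overlap *ICAM1*, each with at most 4 counts in a library.

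**Figure D2:**
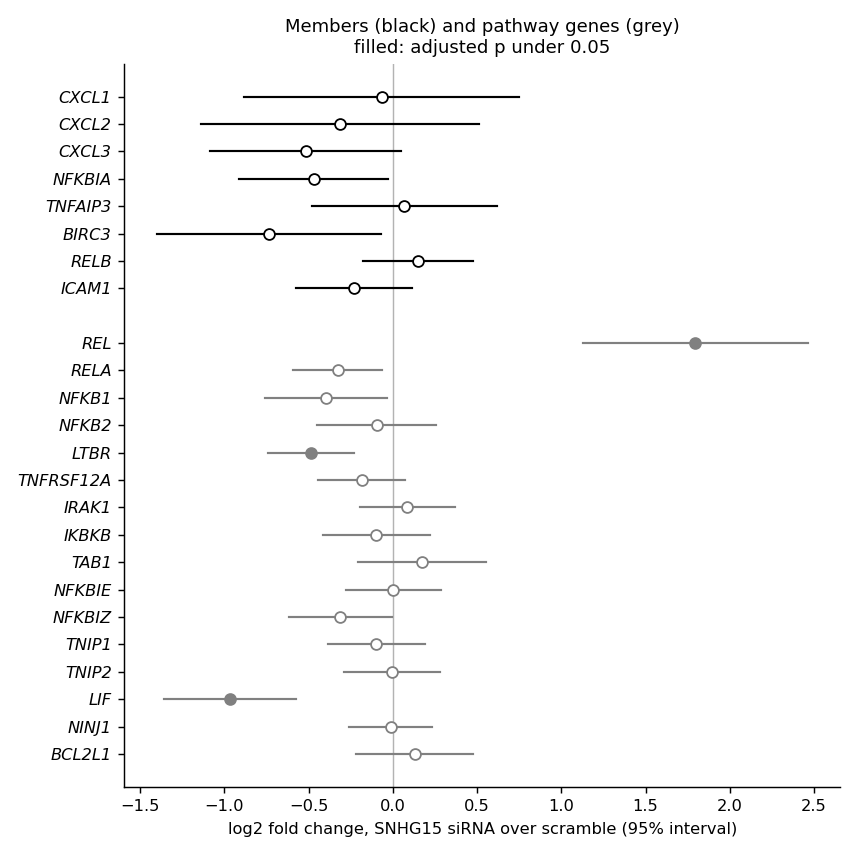
Log2 fold change (*SNHG15* siRNA over scramble) with 95% intervals derived from the edgeR test. The 8 tested genes are in black and 16 other pathway genes in grey, filled where the edgeR adjusted p was under 0.05. The intervals of *NFKBIA* (-0.91 to -0.03) and *BIRC3* (-1.40 to -0.07) stay below 0 before adjustment for the number of genes tested, the other 6 of the 8 cross it, and none of the 8 is filled.

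With 3 libraries against 3, an exact two-sided permutation test of a single gene cannot give a p below 0.1. This exact test gave p = 0.1 for *CXCL3*, whose conditions were apart, and p = 0.2 to 1.0 for the other 7 genes.

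Compared per length of the MANE transcript, the 8 tested genes spanned a wide range. Which transcripts these cells used was not determined, so the order rests on that choice of length. The mean over all libraries in CPM per kilobase of the MANE transcript was 25.3 for *NFKBIA*, 17.0 for *RELB* and 7.49 for *ICAM1*. The chemokines followed with 2.96 for *CXCL3*, 2.56 for *CXCL2* and 1.48 for *CXCL1*, then *TNFAIP3* at 1.04 and *BIRC3* at 0.487. Some neighbours in this order were not apart. *CXCL3* and *CXCL2* overlapped in both conditions, as did *CXCL1* and *TNFAIP3*. *NFKBIA* and *RELB* were apart in the scramble libraries, where *NFKBIA* had at least 26.2 and *RELB* at most 17.8 CPM per kilobase, but overlapped in the siRNA libraries, where *NFKBIA* reached down to 13.9. *CXCL2* and *CXCL1* likewise overlapped in the siRNA libraries only. Against all tested genes, *CXCL1* had a higher mean CPM than 4.62% of them and *NFKBIA* than 63.3%.

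The libraries did not weigh equally in these results. siRNA replicate 1 was the lowest of the 6 libraries in 5 of the 8 tested genes, where it was the lowest in 27.7% of all tested genes. It was the highest in *RELB*, where it was the highest in 26.2% of all tested genes. Scramble replicate 2 was the highest in 4 of the 8 and in 19.1% of all tested genes. Without siRNA replicate 1 the median log2 fold change of the 8 genes was -0.05, and over the 6 fits that left out 1 library it ran from -0.44 to -0.05. *CXCL1* turned from -0.07 to 0.20 without that library, while *CXCL3* and *BIRC3* stayed at -0.45 and -0.63. No fit without a library brought any of the 8 past the threshold.

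**Figure D3:**
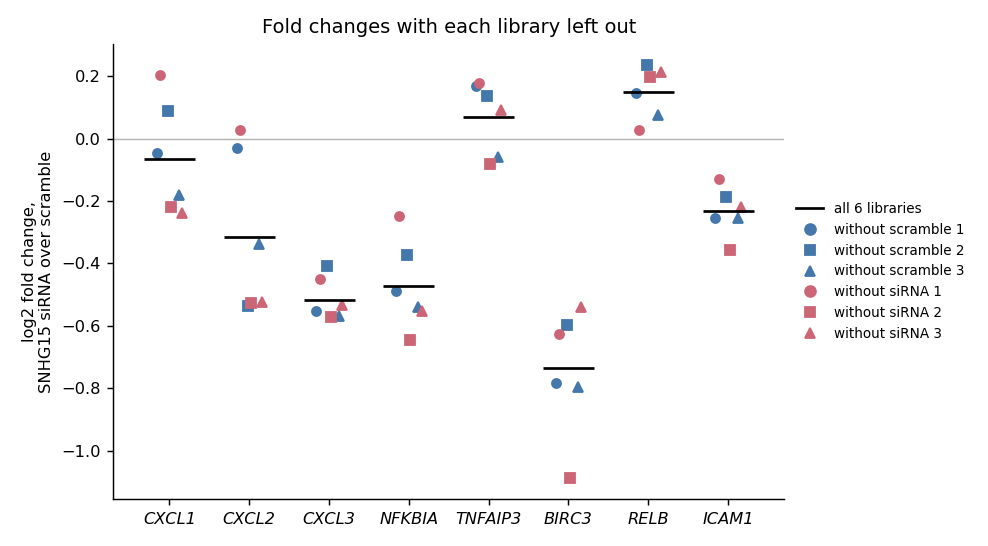
Log2 fold change of each of the 8 tested genes with all libraries and with each library left out in turn. The values of *CXCL1*, *CXCL2* and *TNFAIP3* fall on both sides of 0, and those of *CXCL3* (-0.57 to -0.41), *NFKBIA* (-0.65 to -0.25), *BIRC3* (-1.09 to -0.54) and *ICAM1* (-0.36 to -0.13) stay below it, while *RELB* (0.03 to 0.24) stays above it, lowest where siRNA replicate 1 is left out.

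The rest of the pathway was followed through 6 lists with 84 genes found in the table. Of these, 61 were tested and 3 were called, *REL* higher and *LTBR* and *LIF* lower, at a background of 5.36% of all genes. 20 were at or under the floor, 15 of them at 0 counts in every library. These are counts of the rows matched to the symbols, and whether other rows hold reads of such genes was not checked. Without scramble replicate 1, and likewise without scramble replicate 2, 0 of the 84 were called by edgeR, with 2 scramble libraries left.

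Among the DNA-binding subunits, *REL*, which encodes c-Rel, rose and the others did not pass. *REL* had 1.17, 1.39 and 2.72 CPM in the scramble libraries and 5.68, 5.18 and 5.40 CPM in the siRNA libraries. The conditions were well apart at a low level, 9 to 14 counts in a scramble library and 36 to 46 in an siRNA library. The log2 fold change was 1.80 (SE 0.31, edgeR adjusted p = 0.00740), and the adjusted p was 0.0505 without scramble replicate 1 and 0.0597 without scramble replicate 2. *RELA*, the most abundant subunit, had a log2 fold change of -0.33 (edgeR adjusted p = 0.135) and lay lower in every siRNA library. *NFKB1* had -0.40 (edgeR adjusted p = 0.183).

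None of the 5 other genes of the IkB family passed, although *NFKBID*, an atypical nuclear member, had a log2 fold change of 0.55 (edgeR adjusted p = 0.0950, chosen after its value was seen) and *NFKBIZ* one of -0.31 (edgeR adjusted p = 0.213). *NFKBIE*, an abundant one, had 0.00 (edgeR adjusted p = 0.995). Of the IKK complex and the kinases around it, 7 of 10 were tested, 0 were called by edgeR and 0 had an unadjusted p under 0.05, and DESeq2 called 0. Over all genes tested these shares were 5.36%, 22.5% and 6.05%, so 0 among so few genes says little. *IKBKB*, the catalytic subunit IKK beta, had a log2 fold change of -0.10. The row matched to *IKBKG*, the scaffold NEMO, had 0 counts in every library. This gene has a near-identical copy in the genome, and 8012 identifiers of the deposited counts had no entry in the annotation used. Whether another row holds its reads was not checked, so its count is uncertain. *TAB1*, an adaptor of the kinase TAK1, had 0.17, and 0.03 without siRNA replicate 1.

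Of the receptors and adaptors, 18 of 22 were tested and *LTBR* fell. It encodes the lymphotoxin beta receptor, which feeds the route to RELB. It had 230, 240 and 243 CPM in the scramble libraries and 156, 183 and 168 CPM in the siRNA libraries, with the conditions apart. The log2 fold change was -0.49 (SE 0.12, edgeR adjusted p = 0.0311), and 1 of the 6 fits without a library still called it, with adjusted p up to 0.121. *TNFRSF12A* and *IRAK1*, the most abundant of this list, had log2 fold changes of -0.18 and 0.08 (edgeR adjusted p = 0.386 and 0.741), and *IRAK1* had -0.04 without siRNA replicate 1. Of the 9 other deubiquitinases and brakes 8 were tested, and edgeR called 0, with 0 at an unadjusted p under 0.05, and DESeq2 called 0. The shares over all genes tested were 5.36%, 22.5% and 6.05%. *TNIP1* and *TNIP2*, partners of A20, had log2 fold changes of -0.10 and -0.01.

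Of the other targets, 19 of 34 were tested and *LIF* fell. It encodes a cytokine of the interleukin 6 family. The scramble libraries held 166, 195 and 121 CPM and the siRNA libraries 65.0, 89.8 and 93.8 CPM, with no overlap. The log2 fold change was -0.97 (SE 0.18, edgeR adjusted p = 0.0102), and without scramble replicate 1 or scramble replicate 2 the adjusted p was 0.0505 and 0.0737. *IER3*, an early response gene, had -1.15 and did not pass (edgeR adjusted p = 0.0604, chosen after its value was seen). *NINJ1* and *BCL2L1*, the most abundant targets tested, had -0.01 and 0.13, and *BCL2L1* had 0.00 without siRNA replicate 1. Of the classical inflammatory outputs, the rows matched to *TNF*, *CCL2*, *CCL5*, *CXCL10*, *PTGS2* and *VCAM1* had 0 counts in every library. *IL6* and *IL1B* had no more than 1 count. Whether another row holds reads of *CCL5* was not checked, so its count is uncertain.

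**Figure D4:**
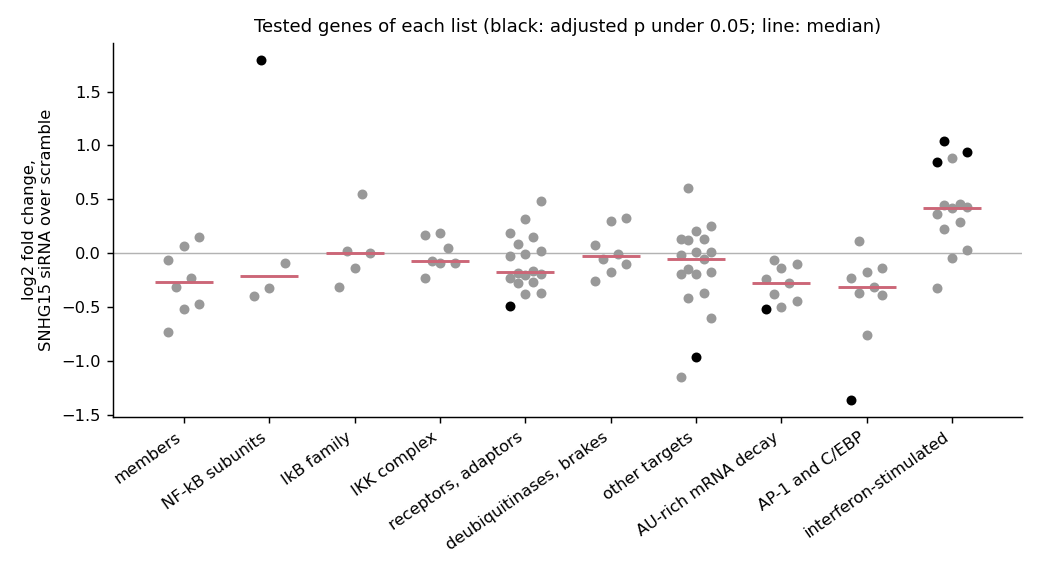
Log2 fold changes of the tested genes of the members, the 6 other pathway lists and 3 lists of partner genes, 1 point per gene, with called genes in black and a line at each median. The 8 tested members have a median of -0.27 with 0 called, and the 61 tested genes of the 6 other pathway lists have a median of -0.07 with 3 called.

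**Figure D5:**
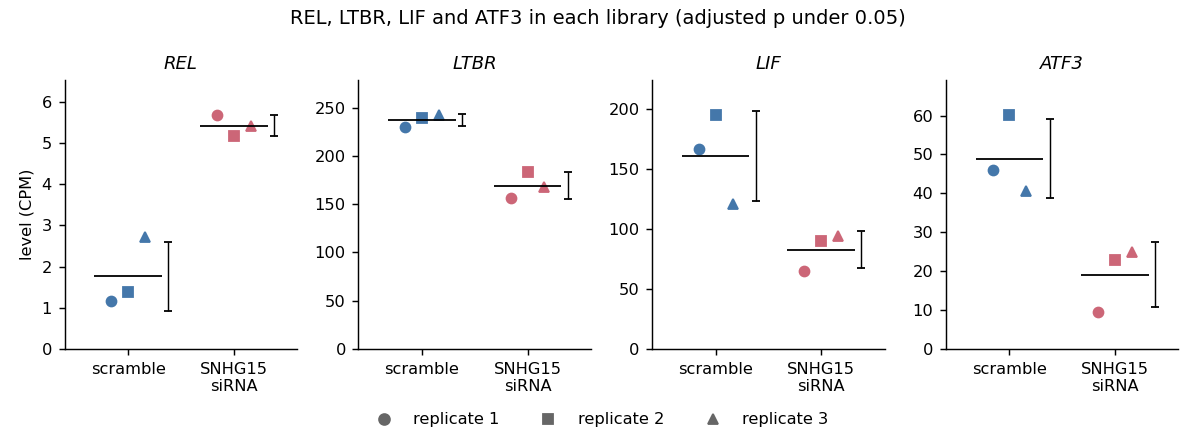
Level in CPM in each library of *REL*, *LTBR* and *LIF*, the 3 called genes of the other pathway lists, and of *ATF3*, a partner factor described next, with lines for means and error bars for the SD. *REL* lies higher in all 3 siRNA libraries (5.18 to 5.68 CPM against 1.17 to 2.72 CPM), and the other 3 genes lie lower in all 3.

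Chemokine mRNAs carry AU-rich elements that govern their decay. Of 9 genes listed for that decay, which include AU-rich element binding proteins and deadenylation factors, all were tested and had a fold change below 0, beside 49.9% of all tested genes, although *CNOT1* and *RC3H1* turned positive in a fit without a library (up to 0.04 and 0.02). The list was chosen with earlier results of these data known, so the shared direction is a description and no test. 1 of the 9 was called lower, where 2.23% of all tested genes were. It was *HNRNPD*, which encodes AUF1 (715 ± 18.4 to 499 ± 55.5 CPM, log2 fold change -0.52, SE 0.12, edgeR adjusted p = 0.0276). Of its 6 fits without a library 2 called it. DESeq2 called *HNRNPD* and *ZFP36L1*, which had a log2 fold change of -0.45 (edgeR adjusted p = 0.0847). Among 9 AP-1 and C/EBP partners, *ATF3*, a stress-induced factor, fell from 48.9 ± 10.1 to 19.1 ± 8.33 CPM (SD, n = 3, log2 fold change -1.36, SE 0.27, edgeR adjusted p = 0.0136), and the adjusted p was 0.0501 without scramble replicate 1 and 0.0947 without scramble replicate 2. Of these 9, 1 was called lower, 8 had a fold change below 0 and 5 lay lower in every siRNA library. The shares over all tested genes were 2.23%, 49.9% and 14.1%. The same limit on the choice of the list holds here. *JUN* had -0.39 (edgeR adjusted p = 0.135) and *FOSL1* -0.18, the latter -0.39 without siRNA replicate 1. Of the relatives of ICAM1 and BIRC3, 6 of 8 were tested and edgeR called 0, with 0 at an unadjusted p under 0.05, and DESeq2 called 0. Over all genes tested the shares were 5.36%, 22.5% and 6.05%. *BIRC2* and *XIAP* had log2 fold changes of 0.25 and 0.28 beside -0.73 for *BIRC3*, a contrast that was not tested.

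Interferon-stimulated genes and markers of other cell types were also counted. Of 16 interferon-stimulated genes 14 were tested and 3 rose, where 3.13% of all tested genes were called higher: *IFI6* (log2 fold change 0.94, edgeR adjusted p = 0.00611), *ISG15* (0.85, adjusted p = 0.00918) and *IFIT1* (1.04, adjusted p = 0.0202), the last lost in 5 of 6 fits without a library and overlapped by *LIPA* on the other strand. *ISG15* had an adjusted p of 0.0586 from edgeR without scramble replicate 2, and *BST2*, the other of the 2 most abundant, had a log2 fold change of -0.04. Of 8 leukocyte markers, *ITGAX*, a leukocyte integrin subunit, was the single one tested and rose from 27.3 ± 5.91 to 54.2 ± 5.84 CPM (SD, n = 3, log2 fold change 0.97, edgeR adjusted p = 0.00761), and without scramble replicate 1 its adjusted p was 0.0508. The summed leukocyte markers ran from 23.9 to 34.3 CPM in the scramble and from 47.7 to 58.3 CPM in the siRNA libraries, nearly all of it *ITGAX*, while *PTPRC*, which defines leukocytes, had at most 1 count and *ITGAM* at most 4. Its part in the results for the 10 genes was not tested. Of the fibroblast markers 0 of 6 could be tested, with *COL1A1* at no more than 9 counts, and *COL1A2* at no more than 1, and of the endothelial markers 0 of 4, all with at most 2 counts.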

How the data were processed

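RNA-seq was made from 3 scramble and 3 *SNHG15* siRNA libraries labelled LoVo. The authors deposited unnormalized counts per Ensembl gene. The study's methods name TruSeq Stranded mRNA libraries, a NextSeq, and alignment with bowtie2 to hg19, while the submitters' processing notes list STAR, featureCounts and hg19. Versions, annotation, strand and multiple-mapping settings are not given in the sources used here, so overlapping and near-identical genes are uncertain. RNA isolation is given as TRIzol in the labels and as a Maxwell kit in the methods. 0 count columns were left unassigned.

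The test was run in edgeR 4.0.16 (R 4.3.3), with filterByExpr (minimum count 10, total 15), TMM and the quasi-likelihood test over all 6 libraries, with no block, and Benjamini-Hochberg adjustment over 12507 tested genes (threshold 0.05). Fold changes are siRNA over scramble. The edgeR test gives no standard error. SE was taken as the absolute log2 fold change over the square root of the F statistic, and the 95% intervals were built from it. DESeq2 gave a wider SE for each of the 8 tested members, for example 0.57 against 0.38 for *CXCL1* and 0.43 against 0.31 for *BIRC3*. CPM were computed on TMM-scaled library sizes, and 3 counts per library was the floor. Single genes were also compared by an exact permutation test. Steps were tested on simulated data. GENCODE 44, lifted to GRCh37, gave names and positions and 8012 identifiers had no entry there, and 180 of 182 listed symbols were matched (*SOD2* and *PECAM1* were not). Promoters came from RefSeq on GRCh38.p14. Alternatives were DESeq2 1.42.0, RLE and upper-quartile factors, no filter, 10 counts in every library, the replicate number as a block, leaving out each library, and summed *CXCL1* to *CXCL3*.

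Totals were 3446922 to 10256710 counts, and the floor covers counting error only. Replicates differed beyond sampling noise. The members and lists were chosen with earlier results of these data known. Named genes were the 10 members, *SNHG15*, and from each other list up to 5 genes past the threshold and the 2 with the highest mean CPM, and any other gene is said to be chosen after its values were seen or is named for its absence or its role in a check. Some items are not reported here.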

Additional observations from a re-analysis of the deposited data

How the results depend on the processing

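None of the 8 tested members was called by edgeR or DESeq2 under any alternative run, and *SNHG15* was called under all. Over the fits without a library the log2 fold change of *CXCL1* ran from -0.24 to 0.20, that of *CXCL2* from -0.54 to 0.029 and that of *TNFAIP3* from -0.082 to 0.18. The sign turned for *CXCL1* without scramble replicate 2 (0.088) and without siRNA replicate 1 (0.20), for *CXCL2* without siRNA replicate 1 (0.029), and for *TNFAIP3* without scramble replicate 3 (-0.058) and without siRNA replicate 2 (-0.082). The median log2 fold change of the members ran from -0.44 to -0.05 over the fits without a library. Those fits called 139 to 812 genes, 139 of them without scramble replicate 2, 199 without scramble replicate 1, 266 without scramble replicate 3 and 356 without siRNA replicate 2, and 0 to 4 genes of the other pathway lists. With no filter 1312 genes and 5 pathway genes were called, *CSF2* and *IER3* joining *REL*, *LTBR* and *LIF*. Without siRNA replicate 1 *RELA* was called too (log2 fold change -0.41, edgeR adjusted p = 0.0357). Upper-quartile factors gave 515 genes higher and 230 lower and DESeq2 388 and 386, against 392 and 279. The cause was not tested.

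Same-number correlations of deviations between the conditions were -0.07, 0.16 and -0.04, and different-number ones ran from -0.17 to 0.14. Whether same-numbered libraries were handled together cannot be read from these values. With the replicate block 543 genes, 0 members and 3 pathway genes were called. *IER3* passed (edgeR adjusted p = 0.0424), and *LTBR* and *HNRNPD* did not (edgeR adjusted p = 0.0562 and 0.0547). *CCL20*, with 0 counts, could be tested under none of the alternatives. *CXCL8* entered the fit where no filter was applied, on its 2 counts in scramble replicate 1, and was not called. *REL* and 2 of the members, *CXCL1* and *CXCL2*, could not be tested with the filter of 10 counts in every library. *CXCL8* and *CCL20* were under the floor, where absence and a level too low for this depth cannot be told apart. Low counts widen the intervals of *CXCL1*, *CXCL2*, *CXCL3*, *BIRC3* and *TNFAIP3*, at no more than 52 counts in a library.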
